A study of Mus musculus with 9 samples.

Results

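The genes described here encode collagen chains, laminin chains, nidogens, fibronectin and integrin subunits, the proteins that form the extracellular matrix and the receptors by which cells hold on to it. Members were chosen by gene symbol alone, as collagen alpha chains, laminin alpha, beta and gamma chains, numbered or alpha V integrin subunits, Itgae, Itgal, Nid1, Nid2 and Fn1, with 4 leukocyte integrin genes (Itgad, Itgam, Itgax and Itgb2) left out. This gave 84 of the 55401 genes in the table, namely 44 collagen genes, 11 laminin genes, 23 integrin subunits, the 2 nidogens, fibronectin, and 3 genes that the symbol pattern also takes, Itgb1bp1, Itgb1bp2 and Itgb3bp, which encode proteins that bind integrin tails and are not subunits. Col26a1 and Itgb2l, which fit in no other family, were grouped with these 3. The study read whole transcripts of spinal motoneurons by Smart-seq2, which amplifies cDNA from very little RNA. The cells came from the cord of wild-type (WT) mice and were labelled with TRDA and drawn by glass electrode from slices of fresh cord 4 weeks after spinal cord injury. The number of neurons in a library is not given in the sources used here. Each group has 3 libraries. Sham mice had no treatment listed, untrained mice had the spinal cord injury alone, and SBES mice were given synergistic bidirectional electrical stimulation after the same injury. The stimulation ran at 10 Hz for SBES replicate 1, 15 Hz for replicate 2 and 20 Hz for replicate 3, so that a difference between single SBES libraries and a difference between frequencies cannot be told apart. The labels give 3 mice per group without tying a library to a mouse. The spread behind the p-values is therefore that of these libraries, and it may be partly technical.

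Collagens are trimers of alpha chains. Fibrillar types give tissues tensile strength, type IV collagen builds the sheet of basement membranes together with laminin trimers and the nidogens that link both networks, and FACIT types attach to fibrils. Integrins are pairs of an alpha and a beta subunit that bind these ligands outside the cell and the actin cytoskeleton inside it. In the spinal cord, basement membranes lie around blood vessels and beneath the meninges, fibrillar collagen lies in meninges and in scar tissue after injury, and neurons carry integrins on their cell bodies and axons.

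Library totals ran from 11821145 to 17675948 counts, and 21791 to 23929 genes had a count. The 3 replicate 1 libraries stood apart from the other 6. The nuclear RNA Malat1 took 1.51%, 1.61% and 0.477% of counts in sham 1, untrained 1 and SBES 1, and 0.0514% to 0.162% in the others. The mitochondrial share of counts was 7.36% in sham 1, 18.6% in SBES 1 and 2.47% to 6.27% in the other 7 libraries. The 7 motor neuron markers (Chat, Slc18a3, Slc5a7, Isl1, Mnx1, Prph and Ret) had counts in all 9 libraries, with a summed level of 71.9 to 190 FPKM in sham, 56.4 to 145 in untrained and 102 to 160 in SBES. RNA of other cells was also present, with a sum over 8 oligodendrocyte markers of 6843 to 14130, 5030 to 7705 and 6269 to 9955 FPKM in the same order. All 8 had fold changes below 0 in untrained against sham (median -0.55) and above 0 in SBES against untrained (median 0.35). In SBES against sham 3 were above and 5 below 0 (median -0.15). The part of these markers' cells in the members' values was not tested. Fewer cells of a type and less RNA per cell cannot be told apart in such libraries.

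Levels below are FPKM, read counts scaled by exonic length and by the library total, with that total adjusted by the TMM factors of edgeR, and each triplet of values is in the order of replicates 1, 2 and 3. The members were scarce. Together they took 0.0233% (sham 1) to 0.0375% (SBES 3) of a library's counts, and 10 of the 84 reached a mean of 1 FPKM in the deposited values. Integrin subunits held 44.6% of the members' summed level per length, collagens 13.5% and laminins 3.53%. Another 37.3% lay with the group of 5 genes described above, mainly Itgb1bp1, of which Col26a1 and Itgb2l also count in the first shares. All 84 genes had a count in at least 1 library and 64 in all 9. The filter on low counts kept 48 members for testing, 21 of 44 collagens, 7 of 11 laminins, 15 of 23 integrin subunits, the nidogens, fibronectin, Itgb1bp1 and Itgb3bp. Of these 48, 27 were over the minimum in all 9 libraries, and in each of the others libraries of more than 1 group were over it. In 3 of them 1 group had no library over the minimum, Itga5 in sham and Col3a1 and Col6a1 in SBES. Itga5 thus entered the tests only through the groups in which it was higher. Col5a3 and Col7a1 were over the minimum in 3 SBES libraries but in only 1 sham and 1 untrained library each. Counts and medians over the 48 describe the members that passed this filter, not all 84. The 36 untested members had 2 to 77 counts over all 9 libraries (median 33) and mean levels of 0.00264 to 0.105 FPKM.

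The most abundant member was Itgb1bp1, the gene of a small cytoplasmic protein that binds the beta 1 integrin tail. It stood at 19.8, 23.9 and 24.2 FPKM in sham, 26.5, 22.7 and 23.1 in untrained and 17.6, 22.9 and 23.5 in SBES libraries. The groups overlapped, and the log2 fold changes were between -0.17 and 0.09 with an SE of 0.21. Exons of other genes cover 16.9% of its exonic length, and whether the authors counted by strand is not given in the sources used here. Itgb3bp, whose protein binds the beta 3 tail and also acts in the nucleus, stood lower, at 0.806 to 1.97 FPKM with overlapping groups. The other members at the top were integrin subunits (Itgb5, Itgb1, Itga3, Itgb4, Itgb8, Itgav and Itga7), 2 chains of collagen type IX (Col9a2 and Col9a3) and 1 laminin chain (Lamb2).

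**Figure D1:**
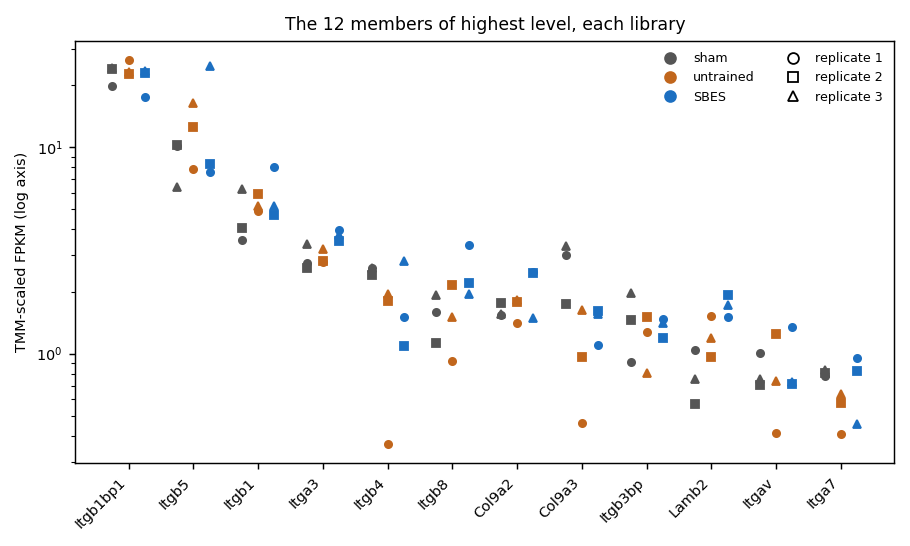
Level of the 12 members with the highest mean, one column each, on a log axis of TMM-scaled FPKM. Every point is a library, coloured by group (sham, untrained, SBES) and shaped by replicate. Itgb1bp1 lies near 20 FPKM in all 9 libraries, Itgb5 reaches 24.8 FPKM in SBES replicate 3, and Itgb4 and Col9a3 have their lowest value in untrained replicate 1.

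Untrained against sham libraries asks what injury alone changed, and no member passed. With edgeR, at a Benjamini-Hochberg adjusted p under 0.05 over all 15893 genes tested, 0 of 48 members and 0 of all genes (0%) were called, and DESeq2 called 0 members and 18 genes (0.113%). At an unadjusted p under 0.05 there were 6 members (12.5%), beside 4.45% of all genes. Those with a positive fold change were 3 (Itga5, Fn1 and Col25a1; 2.18% of all genes), and those with a negative one were Col9a3, Col11a2 and Col1a2 (2.27% of all genes). The 2 groups' libraries did not overlap for 5 members (10.4%) and for 9.76% of all genes. Itga5 and Col25a1 lay above sham (4.62% of all genes did), and Col9a3, Itga7 and Itgb4 below it (5.13%). The median log2 fold change over the members tested was -0.02 against -0.01 over all genes, with 23 of 48 above 0 (49.1% of all genes), and it was 0.25 without sham replicate 1 and 0.081 without untrained replicate 3.

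SBES against untrained libraries asks what stimulation changed after the injury, and again no member passed. EdgeR called 0 members and 0 genes (0%), and DESeq2 0 members and 30 genes (0.189%). At an unadjusted p under 0.05 there were 3 members, Fn1, Col4a2 and Col5a3, which is 6.25% beside 5.37% of all genes. All 3 had positive fold changes (3.70% of all genes did), and 0 members stood beside the 1.67% of genes with negative ones. SBES libraries lay wholly above untrained ones for 7 members (14.6%, beside 5.66% of all genes), namely Col4a2, Col5a3, Col7a1, Col12a1, Fn1, Itga3 and Itga5, and wholly below for Itga6 (4.77% of all genes), 10.4% of genes in all being without overlap. Of the 7, Col5a3 and Col7a1 had 3 SBES libraries but only 1 untrained and 1 sham library over the minimum of the low-count filter. The members' median was 0.19 against 0.02 over all genes, with 32 of 48 above 0 (51.7% of all genes). Scaled by total counts alone, the members' median was -0.031 and that of all genes -0.19, and the median was -0.051 without SBES replicate 1.

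SBES against sham libraries compares injury with stimulation to no injury, and here edgeR called Itga5. This gene had passed the low-count filter only through untrained and SBES libraries, and its call was lost when some single libraries were left out. EdgeR called 1 of 48 members (2.08%) and 55 genes (0.346%), and DESeq2 called 3 members, Itga5, Fn1 and Lamb2, and 300 genes (1.89%). With the replicate number as a block, which the design does not give, edgeR called 132 genes and 2 members, Itga5 and Fn1. At an unadjusted p under 0.05 there were 6 members (12.5%, beside 9.31% of all genes), 5 with positive fold changes (Itga5, Fn1, Lamb2, Col4a2 and Col4a1; 5.69% of all genes) and Col9a3 with a negative one (3.62%). The libraries did not overlap for 6 members, beside 13.8% of all genes. Itga5, Fn1, Lamb2, Itga3 and Itgb8 lay above sham (7.09% of all genes) and Col9a3 below it (6.76%). The members' median was 0.18 against -0.00 over all genes, with 26 of 48 above 0 (49.8% of all genes), and it was -0.14 without SBES replicate 1 and -0.027 without sham replicate 2. The 3 comparisons share libraries, so their values for a gene are not independent of each other. The lack of overlap also depends on the scale. With library totals not adjusted by TMM, 3 of the 5 members without overlap in untrained against sham kept it (Itga5, Col25a1 and Col9a3), 5 of 8 in SBES against untrained (not Itga3, Itga5 and Col12a1) and 4 of 6 in SBES against sham (not Itga3 and Itgb8). Other members were without overlap only on that scale. They were Fn1, Lamb2 and Lama5 (higher) in untrained against sham and Lama4 and Itgb1bp1 (lower) in SBES against untrained. In SBES against sham they were Col4a2 (higher), Col11a2 and Itga6 (lower). The share of all genes without overlap on that scale is not given here, so these counts have nothing to be set beside.

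**Figure D2:**
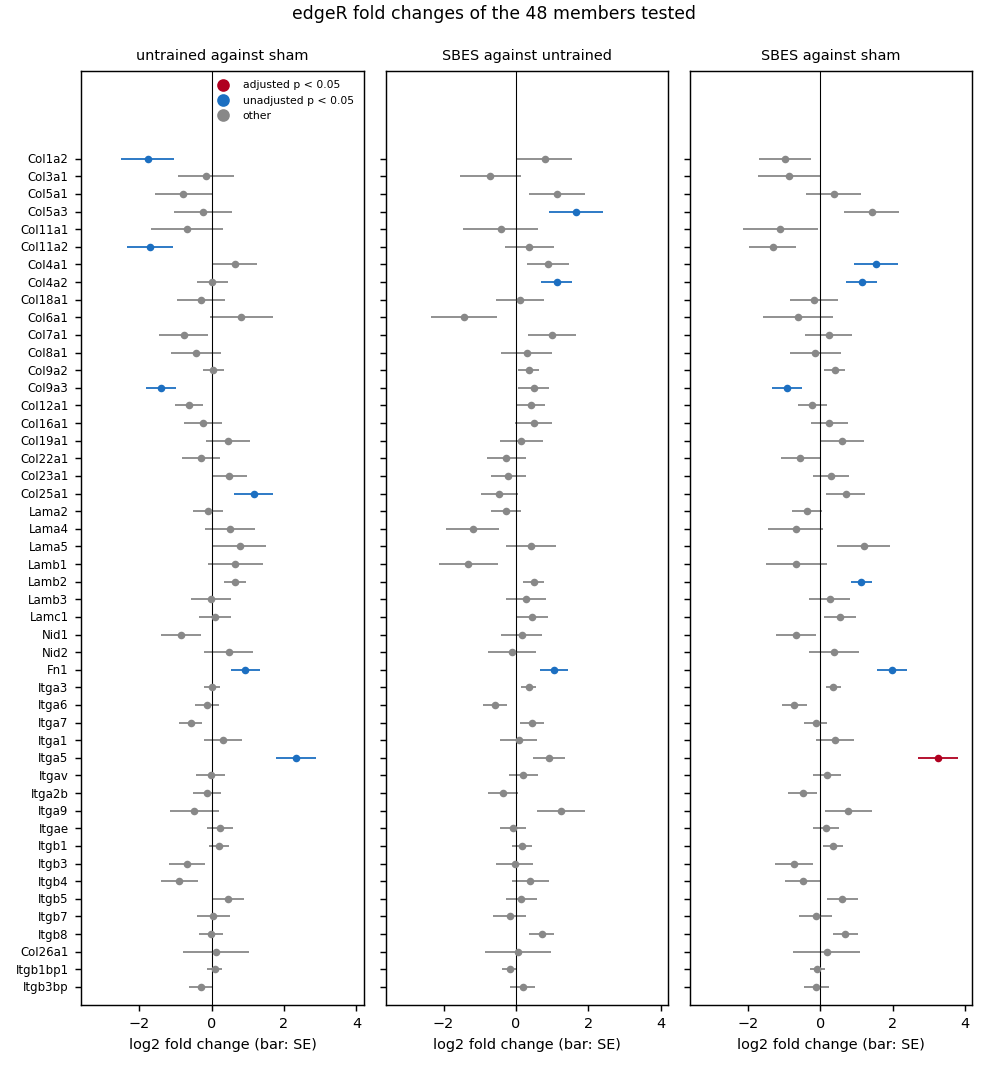
Log2 fold change of each of the 48 members tested, with its SE as a bar, in the 3 comparisons, ordered by role from collagens to integrins. Red marks an adjusted p under 0.05 and blue an unadjusted p under 0.05. Itga5 in SBES against sham is the only red point, at 3.25. The 6 fibrillar collagens at the top lie left of 0 in untrained against sham, 2 of which (Col5a1 and Col5a3) lay right of it without the replicate 1 libraries and 2 (Col3a1 and Col5a3) with total counts.

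Fibronectin, encoded by Fn1 (chr1:71585520-71653200, minus strand, mm10), is the soluble and matrix glycoprotein to which the alpha 5 beta 1 integrin binds through an arginine-glycine-aspartate motif. Its levels were 0.186, 0.146 and 0.0885 FPKM in sham, 0.316, 0.295 and 0.175 in untrained and 0.552, 0.367 and 0.708 in SBES libraries, on 66, 152 and 254 counts per group. Every SBES library lay above every untrained and every sham library, while untrained and sham overlapped on this scale. Without TMM factors the untrained libraries, at 0.194 to 0.342 FPKM, lay wholly above sham, at 0.0920 to 0.168. The mean ± SD over 3 libraries was 0.140 ± 0.0492, 0.262 ± 0.0760 and 0.543 ± 0.171 FPKM. In SBES against sham the log2 fold change was 1.98 (SE 0.41), which missed the threshold in edgeR (adjusted p = 0.0669) and passed it with the replicate block (adjusted p = 0.0475) and with DESeq2 (adjusted p = 0.000715). Over all alternatives the adjusted p ran from 0.000423 to 0.359, and without the 3 replicate 1 libraries it was 0.0201 at a log2 fold change of 2.21. The fold change was 0.93 (SE 0.40) in untrained against sham and 1.05 (SE 0.38) in SBES against untrained. Exons of Apol7d on the opposite strand overlap 2.50% of the exonic length of Fn1.

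Itga5 (chr15:103344286-103366763, minus strand, mm10) encodes the alpha 5 subunit, which pairs with beta 1 into the main fibronectin receptor. It was the member with the largest fold change in SBES against sham and in untrained against sham. Its levels were 0.0221, 0.0642 and 0.0552 FPKM in sham, 0.294, 0.180 and 0.305 in untrained and 0.316, 0.435 and 0.701 in SBES libraries. On this scale the 3 groups did not overlap with each other, and the lowest library of all was sham 1. With library totals not adjusted by TMM, SBES 1 stood at 0.240 FPKM, within the untrained range of 0.209 to 0.337, while both groups still lay above sham. These levels rest on few reads, 11 counts in the 3 sham libraries, 63 in untrained and 101 in SBES. No sham library was over the minimum of the low-count filter, which Itga5 passed only through untrained and SBES libraries. Sham libraries averaged 0.0472 ± 0.0222 FPKM (SD, n = 3), untrained libraries 0.260 ± 0.0692 and SBES libraries 0.484 ± 0.197, so that SBES stood at 10.3 times and untrained at 5.51 times the sham mean.

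In SBES against sham Itga5 rose by 3.25 on the log2 scale (SE 0.54; edgeR adjusted p = 0.0339), higher in 3 of 3 libraries. The adjusted p ran from 3.49e-05 to 0.201 over the alternatives. The call was lost without sham replicate 1 (adjusted p = 0.0637), sham replicate 2 (0.133), sham replicate 3 (0.201), SBES replicate 2 (0.0571) or SBES replicate 3 (0.138), while the fold change stayed between 2.88 and 3.49. Without the 3 replicate 1 libraries it was 3.23 (edgeR adjusted p = 0.00969). In untrained against sham the log2 fold change was 2.33 (SE 0.55; edgeR adjusted p = 0.802, DESeq2 adjusted p = 0.152), and with no filter on low counts it passed (adjusted p = 0.0400). The range over the alternatives was 0.0400 to 1.00. SBES against untrained gave 0.91 (SE 0.45; unadjusted p = 0.0673). No exon of another gene overlaps Itga5.

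The window around the start of Itga5 is shown because it is the only member called. It is the 300 bases around the RefSeq start in GRCm38.p6, most of them upstream, chr15:103366742-103367041, minus strand, with 58.7% G and C. Capitals mark the GC box GGGCGG on either strand, which it holds at 2 places, and it has no match to CCAAT.

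Itga5: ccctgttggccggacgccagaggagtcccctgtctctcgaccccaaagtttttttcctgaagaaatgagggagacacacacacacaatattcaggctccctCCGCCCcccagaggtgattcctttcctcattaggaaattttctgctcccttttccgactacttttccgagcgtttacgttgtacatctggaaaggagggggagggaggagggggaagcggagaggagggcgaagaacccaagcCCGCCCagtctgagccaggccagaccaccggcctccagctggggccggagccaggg

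**Figure D3:**
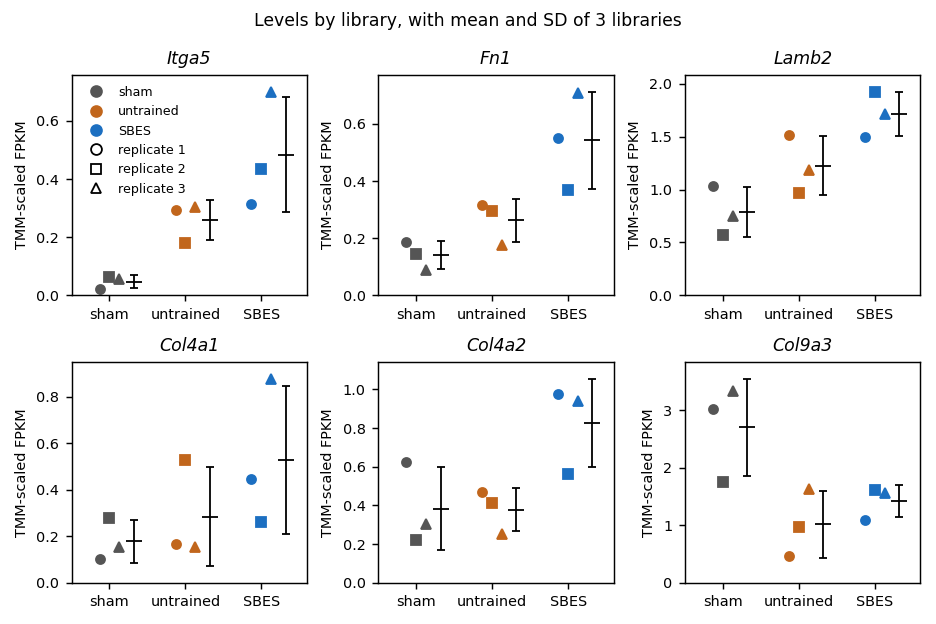
Levels of Itga5, Fn1, Lamb2, Col4a1, Col4a2 and Col9a3 in TMM-scaled FPKM on linear axes from 0, one point per library, coloured by group and shaped by replicate, with the mean and SD of 3 libraries beside them. For Itga5 the 3 groups do not overlap (without TMM factors untrained and SBES do), for Fn1 and Lamb2 the SBES libraries lie above all sham ones, and for Col9a3 the 3 sham libraries, 1.74 to 3.33 FPKM, lie above the other 6.

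RNA of vessels, mural cells, meninges and leukocytes was present in the same libraries. All 10 endothelial markers were found with none at 0 in any library, and their summed level was 178 to 299 FPKM in sham, 261 to 392 in untrained and 320 to 481 in SBES. Their fold changes were above 0 in 10 of 10 for untrained against sham, 4 of 10 for SBES against untrained and 8 of 10 for SBES against sham, with medians of 0.56, -0.34 and 0.19, and edgeR called 0 of them in each. At an unadjusted p under 0.05 there were 5, 3 and 3 of the 10, beside 4.45%, 5.37% and 9.31% of all genes. The 10 pericyte and smooth muscle markers summed to 63.3 to 109, 115 to 166 and 85.3 to 113 FPKM, with none at 0. The 10 fibroblast and meningeal markers summed to 77.6 to 103, 64.4 to 90.7 and 62.2 to 110.5 FPKM, with Igf2 at 0 in some library. The 10 markers of infiltrating leukocytes summed to 3058, 81.0 and 28.5 FPKM in sham, 1084, 453 and 291 in untrained and 214, 404 and 533 in SBES libraries. The highest sums were thus those of sham 1 and untrained 1. Of these markers Ccr2, Cd3e, Mrc1, Ms4a1 and Plac8 were at 0 in some library. The part of these cells in the values of Itga5, Fn1, Lamb2 and the type IV collagens was not tested.

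Laminins are trimers of 1 alpha, 1 beta and 1 gamma chain. The chain with the highest level was Lamb2 (chr9:108479736-108490530, plus strand, mm10), the beta 2 chain of vascular and synaptic basement membranes. Its levels were 1.04, 0.573 and 0.752 FPKM in sham, 1.52, 0.969 and 1.19 in untrained and 1.50, 1.92 and 1.72 in SBES libraries. SBES lay wholly above sham, and untrained overlapped with both on this scale. Without TMM factors the untrained libraries, at 1.12 to 1.60 FPKM, lay wholly above sham, at 0.658 to 0.781, and still overlapped with SBES. The log2 fold change in SBES against sham was 1.14 (SE 0.30; edgeR adjusted p = 0.164, DESeq2 adjusted p = 0.0241), and adjusted p ran from 0.0140 to 0.576 over the alternatives. Without the 3 replicate 1 libraries edgeR called it at 1.46 (adjusted p = 0.0140). Untrained against sham gave 0.65 (SE 0.30) and SBES against untrained 0.49 (SE 0.29).

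The other beta chains were low. Lamb1, the beta 1 chain, stood at 0.0658, 0.0767 and 0.0439 FPKM in sham, 0.180, 0.0897 and 0.0243 in untrained and 0.0336, 0.0768 and 0.00623 in SBES libraries, with groups that overlap and a log2 fold change of -1.31 (SE 0.81) in SBES against untrained. Lamb3 lay between 0.0504 and 0.185 FPKM. The gamma 1 chain Lamc1, shared by most laminins of vessels, had 0.487, 0.237 and 0.283 FPKM in sham, 0.223, 0.396 and 0.444 in untrained and 0.565, 0.251 and 0.642 in SBES libraries. Its groups overlapped, and no fold change of Lamc1 exceeded 0.55 (SE 0.44). Lamc3, another gamma chain, was not tested, on 17, 34 and 26 counts in the 3 groups.

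Each of the 5 alpha chains stayed under 0.2 FPKM in every library. Lama4, the alpha 4 chain of endothelial basement membranes, stood at 0.144, 0.0578 and 0.0406 FPKM in sham, 0.142, 0.0967 and 0.0898 in untrained and 0.120, 0.0172 and 0.0205 in SBES libraries. The highest library of each group was replicate 1, and the log2 fold change in SBES against untrained was -1.19 (SE 0.73), or -2.29 without the replicate 1 libraries. Lama5, the other endothelial alpha chain, gave 1.19 (SE 0.73) in SBES against sham at 0.00556 to 0.0860 FPKM in sham and 0.0547 to 0.166 in SBES libraries, which overlap. Lama2, the alpha chain of muscle and glial basement membranes, lay between 0.0653 and 0.144 FPKM. Lama1 and Lama3 were not tested, with 18, 32 and 22 counts and 26, 16 and 16 counts in the 3 groups. Summed over all 11 chains, laminin levels were 2.33, 1.28 and 1.48 FPKM in sham, 2.61, 2.08 and 2.30 in untrained and 2.99, 2.67 and 2.83 in SBES libraries, with every SBES sum above every untrained and sham sum. Without TMM factors the SBES 1 sum was 2.27 FPKM, below the 2.41 to 2.75 of the untrained libraries, so this order depends on the scaling. Of the SBES sums Lamb2 gave 1.50, 1.92 and 1.72 FPKM.

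Type IV collagen genes lie in head-to-head pairs. Col4a1 (chr8:11198423-11312826, minus strand) and Col4a2 (chr8:11312805-11449287, plus strand), whose chains form the common heterotrimer of basement membranes, start 21 bases apart and overlap by 22 bases in the deposited mm10 coordinates. Col4a3 and Col4a4 on chromosome 1 start 72 bases apart, and Col4a5 and Col4a6 on chromosome X 1309 bases apart. The first pair's windows are shown because both genes read outwards from one stretch. The windows, chr8:11312777-11313076 on the minus strand for Col4a1 and chr8:11312555-11312854 on the plus strand for Col4a2 (RefSeq, GRCm38.p6), share 78 bases, which stand at the end of each line as reverse complements. Capitals mark GGGCGG and CCAAT on either strand.

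Col4a1: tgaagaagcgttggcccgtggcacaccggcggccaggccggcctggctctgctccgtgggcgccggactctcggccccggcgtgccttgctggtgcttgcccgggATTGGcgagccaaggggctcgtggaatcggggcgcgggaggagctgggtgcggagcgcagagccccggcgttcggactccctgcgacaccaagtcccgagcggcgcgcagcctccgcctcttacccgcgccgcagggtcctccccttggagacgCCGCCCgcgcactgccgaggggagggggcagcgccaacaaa

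Col4a2: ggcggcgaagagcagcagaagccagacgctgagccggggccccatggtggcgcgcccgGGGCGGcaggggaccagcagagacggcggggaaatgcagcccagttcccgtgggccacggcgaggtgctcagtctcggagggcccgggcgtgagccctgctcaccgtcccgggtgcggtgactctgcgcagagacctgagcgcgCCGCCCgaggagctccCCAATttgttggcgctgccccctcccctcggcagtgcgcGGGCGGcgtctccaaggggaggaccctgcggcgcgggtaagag

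The Col4a1 window holds 1 GC box and 1 CCAAT match at 74.0% G and C, and that of Col4a2 holds 3 and 1 at 73.7%. The table held windows for 60 of the 84 members and for 27025 genes in all, and GGGCGG occurs in 55.0% of the member windows and 35.9% of all. For CCAAT the shares were 25% and 37.9%, for TATAAA 8.3% and 14.2%, for TGANTCA (AP-1) 3.3% and 7.9%, for CANNTG (E box) 65.0% and 72.1%, and for ACGTG (the core bound by HIF) 11.7% and 19.7%, each on both strands. The median share of G and C was 59.3% in the member windows and 52.7% in all, and its part in these motif shares was not tested. A match is a run of letters, not a measured binding site.

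Col4a1 stood at 0.102, 0.280 and 0.153 FPKM in sham, 0.168, 0.529 and 0.153 in untrained and 0.447, 0.260 and 0.877 in SBES libraries. The groups overlapped, with the 2 highest libraries being SBES 3 and untrained 2. Col4a2 stood at 0.625, 0.220 and 0.304 FPKM in sham, 0.469, 0.411 and 0.255 in untrained and 0.975, 0.565 and 0.942 in SBES libraries. Here SBES lay wholly above untrained, and only sham 1 reached into the SBES range, which it did not without TMM factors. In SBES against untrained the log2 fold change was 1.12 (SE 0.43; unadjusted p = 0.0215) for Col4a2 and 0.90 (SE 0.58) for Col4a1. In SBES against sham it was 1.14 (SE 0.43; edgeR adjusted p = 0.407) and 1.54 (SE 0.60; edgeR adjusted p = 0.437), and untrained against sham gave 0.02 (SE 0.43) and 0.64 (SE 0.60). With no filter on low counts edgeR called Col4a1 in SBES against sham (adjusted p = 0.0422), while its adjusted p was 0.244 with DESeq2, 0.268 with the replicate block and 0.315 without the replicate 1 libraries.

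Although the pair shares a start region, the ratio of Col4a1 to Col4a2 FPKM differed between libraries. It was 0.163, 1.27 and 0.503 in sham, 0.359, 1.29 and 0.602 in untrained, and 0.459, 0.460 and 0.931 in SBES. The sham ratios rest on 7, 33 and 21 counts of Col4a1 and 38, 23 and 37 of Col4a2. The part of counting noise in the ratio was not tested. The ratio passed 1 in the second sham and the second untrained library and lay under 1 in the other 7, and its range within sham covered nearly all of the range over the study. Col4a3, Col4a4, Col4a5 and Col4a6 were not tested, with 17, 14, 22 and 5 counts in sham, 24, 8, 16 and 2 in untrained and 18, 11, 18 and 3 in SBES. Summed over the 6 genes the level was 0.970, 0.645 and 0.589 FPKM in sham, 0.757, 1.08 and 0.498 in untrained and 1.74, 0.918 and 1.92 in SBES libraries.

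The nidogens tie laminin to type IV collagen. Nid1 had 0.548, 0.338 and 0.408 FPKM in sham, 0.143, 0.448 and 0.121 in untrained and 0.224, 0.140 and 0.427 in SBES libraries, with log2 fold changes of -0.84 (SE 0.55) and -0.68 (SE 0.55) against sham. Nid2 had 0.294, 0.0735 and 0.0842, then 0.0765, 0.365 and 0.140, then 0.172, 0.134 and 0.239 FPKM in the same order. Groups overlapped for both genes, and 0 of their comparisons had an unadjusted p under 0.05.

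**Figure D4:**
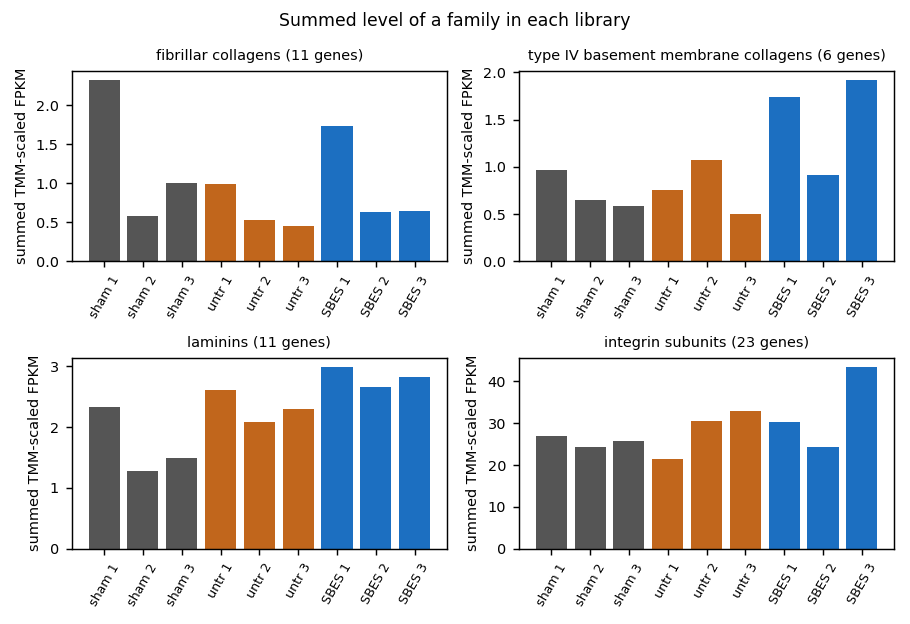
Summed level in TMM-scaled FPKM of 4 families in each of the 9 libraries, as bars from 0 coloured by group, with untr standing for untrained. Fibrillar collagens are highest in replicate 1 of each group (2.32, 0.984 and 1.73 FPKM), type IV collagens in SBES 1 and 3, laminins in the 3 SBES libraries (without TMM factors SBES 1 lies below the untrained ones), and integrin subunits in SBES 3 at 43.5 FPKM.

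Among the other collagens, the genes of type IX, a FACIT collagen of cartilage and other tissues, had the highest levels. Col9a3 (chr2:180597790-180622189, plus strand, mm10) stood at 3.02, 1.74 and 3.33 FPKM in sham, 0.463, 0.966 and 1.63 in untrained and 1.10, 1.62 and 1.55 in SBES libraries. All 3 sham libraries lay above all 6 injured ones. The log2 fold change was -1.40 (SE 0.42; unadjusted p = 0.00581, edgeR adjusted p = 1.00) in untrained against sham and -0.91 (SE 0.42; edgeR adjusted p = 0.530) in SBES against sham. Without the replicate 1 libraries these values were -0.95 and -0.68. Exons of Tcfl5 on the opposite strand overlap 6.07% of its exonic length. Col9a2, which encodes another chain of the same trimer, stood at 1.55, 1.76 and 1.56 FPKM in sham, 1.41, 1.78 and 1.83 in untrained and 2.48, 2.46 and 1.50 in SBES libraries, with overlapping groups and a log2 fold change of 0.04 (SE 0.29) in untrained against sham. Col9a1, the third chain, was not tested, at 26, 12 and 10 counts. Col12a1, a FACIT collagen of fibril surfaces, lay between 0.139 and 0.350 FPKM in sham, 0.0985 and 0.178 in untrained and 0.186 and 0.197 in SBES.

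Fibrillar collagens were low, and their sum was highest in replicate 1 of each group. The sum over the 11 genes was 2.32, 0.582 and 1.01 FPKM in sham, 0.984, 0.527 and 0.445 in untrained and 1.73, 0.634 and 0.646 in SBES libraries. Col11a1, a minor chain of cartilage-type fibrils, shows the pattern at 0.521, 0.0895 and 0.0811, then 0.347, 0.0523 and 0.0189, then 0.236, 0.0380 and 0.0533 FPKM. Replicate 1 was the highest library of all 3 groups for 11 of the 48 members tested (22.9%), for 18 of all 84 members (21.4%) and for 13.9% of all genes tested. For 34 of the 48 (70.8%) the highest of the 9 libraries was a replicate 1 library, against 47.2% of all genes tested. The TMM factors of sham 1 (0.727) and SBES 1 (0.760) raise their levels, and without them the last pair was 21 of 48 (43.8%) against 27.4%, and replicate 1 was highest in all 3 groups for 3 of 48 (6.25%) against 4.27%. These libraries are those with the high Malat1 share and, in sham 1 and SBES 1, the high mitochondrial share, and the part of either in these levels was not tested.

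In untrained against sham the 6 fibrillar genes tested had fold changes below 0, but this did not hold under every setting. Without the replicate 1 libraries Col5a1 was at 0.18 and Col5a3 at 0.97, without sham replicate 1 alone 3 of 6 were above 0 (Col5a1, Col5a3 and Col11a1), without untrained replicate 2 1 of 7 (Col5a2) and without untrained replicate 3 3 of 7 (Col3a1, Col5a2 and Col5a3). With total counts Col3a1 and Col5a3 were above 0. Col11a2, another cartilage-type chain, had 0.443, 0.129 and 0.348 FPKM in sham, 0.0384, 0.0647 and 0.175 in untrained and 0.194, 0.0907 and 0.0898 in SBES libraries, with overlapping groups, and its log2 fold change was -1.69 (SE 0.64; unadjusted p = 0.0205). Col1a2, a chain of type I collagen, had 0.210, 0.0459 and 0.258, then 0.0212, 0.0447 and 0.0824, then 0.0269, 0.162 and 0.0646 FPKM, at -1.77 (SE 0.74; unadjusted p = 0.0342). Without the replicate 1 libraries these values were -0.98 and -1.25. In SBES against sham they were -1.32 (SE 0.64) and -0.97 (SE 0.72). Col11a2 had 86, 32 and 31 counts in the 3 groups, and Col1a2 had 92, 31 and 45. Col5a3, a type V chain, had 0.208, 0.0372 and 0.0320 FPKM in sham, 0.0775, 0.0980 and 0.0354 in untrained and 0.408, 0.122 and 0.163 in SBES libraries. SBES lay above untrained in all libraries, at a log2 fold change of 1.65 (SE 0.75; unadjusted p = 0.0464). These levels rest on 21, 24 and 55 counts in the 3 groups.

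Of the remaining collagens, Col25a1, a transmembrane collagen that muscle innervation depends on in mice, had 0.0752, 0.0486 and 0.0710 FPKM in sham, 0.218, 0.111 and 0.106 in untrained and 0.145, 0.133 and 0.0427 in SBES libraries. All untrained libraries lay above all sham libraries, and the log2 fold change was 1.16 (SE 0.53; unadjusted p = 0.0496), or 0.87 without the replicate 1 libraries. In SBES against sham it was 0.70 (SE 0.55). The gene had 36, 92 and 51 counts in the 3 groups. Col7a1, the anchoring fibril collagen, had 0.0642, 0.0432 and 0.0351 FPKM in untrained and 0.119, 0.0875 and 0.0840 in SBES libraries, which do not overlap, at 1.00 (SE 0.67), while its sham libraries spanned 0.0308 to 0.190. Its counts were 31, 24 and 38 in sham, untrained and SBES. Col6a1, a chain of beaded filaments, was set by 1 library, with 0.708 FPKM in untrained replicate 1 and 0.0508 to 0.248 in the other 8. Its log2 fold change in SBES against untrained, -1.43 (SE 0.91), turned to 0.70 without that library.

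Among the receptors, the beta subunits had the highest levels. Itgb5, which pairs with alpha V into a vitronectin receptor, stood at 10.1, 10.2 and 6.45 FPKM in sham, 7.88, 12.5 and 16.4 in untrained and 7.61, 8.32 and 24.8 in SBES libraries. The groups overlapped, and SBES 3 was the highest library by far. The log2 fold changes were 0.46, 0.15 and 0.61 (SE 0.43 each) for untrained against sham, SBES against untrained and SBES against sham. Itgb1, the shared partner of most matrix-binding alpha subunits, alpha 5 among them, had 3.57, 4.08 and 6.26 FPKM in sham, 4.90, 5.92 and 5.18 in untrained and 8.01, 4.70 and 5.19 in SBES libraries. These groups overlapped too, with a log2 fold change of 0.36 (SE 0.28) in SBES against sham, which is within the spread between its libraries. At 5.31 FPKM on average, Itgb1 was far above Itga5 in every library.

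Itgb8, which pairs with alpha V and activates latent TGF-beta, had 1.59, 1.12 and 1.92 FPKM in sham, 0.919, 2.16 and 1.51 in untrained and 3.37, 2.20 and 1.94 in SBES libraries. SBES lay above sham in all libraries, by a narrow gap between 1.92 and 1.94 FPKM that is not there without TMM factors. The log2 fold change was 0.69 (SE 0.34) there and 0.71 (SE 0.34; unadjusted p = 0.0564) against untrained, or 0.45 and 0.16 without the replicate 1 libraries. Itgb4, the partner of alpha 6 in hemidesmosomes and in the myelin-forming Schwann cells of nerves, had 2.61, 2.39 and 2.62 FPKM in sham, 0.367, 1.80 and 1.94 in untrained and 1.51, 1.09 and 2.83 in SBES libraries. Untrained lay below sham in all libraries, though not without TMM factors, at -0.89 (SE 0.50), which was -0.39 without the replicate 1 libraries. Itgb3, the platelet and vessel partner of alpha IIb and alpha V, had 0.118 to 0.406 FPKM, and its log2 fold change in SBES against sham was -0.72 (SE 0.52). Itgb7, a leukocyte subunit, lay between 0.321 and 0.848 FPKM with overlapping groups, and Itgb6, an epithelial one, was not tested on 2 counts in all.

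The 3 alpha subunits grouped here as laminin-binding, Itga3, Itga6 and Itga7, were all tested. Itga3, the alpha 3 subunit, stood at 2.74, 2.60 and 3.41 FPKM in sham, 2.79, 2.80 and 3.23 in untrained and 3.99, 3.50 and 3.74 in SBES libraries. On the TMM scale every SBES library lay above the other 6, while without TMM factors SBES 1, at 3.04 FPKM, lay below sham 3, untrained 2 and untrained 3. The difference was small, 0.36 (SE 0.21) against sham and 0.35 (SE 0.21; unadjusted p = 0.124) against untrained. Itga6, the alpha 6 subunit, had 1.16, 0.548 and 0.744 FPKM in sham, 0.765, 0.796 and 0.652 in untrained and 0.645, 0.364 and 0.480 in SBES libraries. SBES lay below untrained in all libraries, at -0.58 (SE 0.33; unadjusted p = 0.107), and overlapped with sham at -0.72 (SE 0.34; unadjusted p = 0.0544). Without TMM factors SBES lay wholly below sham too. Itga7, the alpha 7 subunit, which neurons raise after axon injury in peripheral nerve, had 0.780, 0.807 and 0.834 FPKM in sham, 0.408, 0.577 and 0.640 in untrained and 0.949, 0.821 and 0.458 in SBES libraries. Untrained lay below sham in all libraries, again not without TMM factors, at -0.57 (SE 0.32; unadjusted p = 0.100).

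Apart from Itga5, no integrin subunit had an unadjusted p under 0.05 in any of the 3 comparisons. Itgav, the alpha V subunit of the RGD-binding receptors, had 1.00, 0.702 and 0.750 FPKM in sham, 0.412, 1.25 and 0.734 in untrained and 1.35, 0.715 and 0.730 in SBES libraries, with fold changes between -0.02 and 0.21. Of the 4 collagen-binding subunits only Itga1 was tested, at 0.0674 to 0.197 FPKM, and its log2 fold change in SBES against sham was 0.40 (SE 0.53). Itga9, a receptor for tenascin and other ligands, gave 1.25 (SE 0.66) in SBES against untrained, which was 0.30 without the replicate 1 libraries. Summed over the 23 subunits, integrin levels were 27.0, 24.4 and 25.8 FPKM in sham, 21.5, 30.6 and 33.0 in untrained and 30.2, 24.4 and 43.5 in SBES libraries. Itgb5 alone gave 24.8 of the 43.5 FPKM in SBES 3.

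Genes that work with these proteins were read from a list of 88 partners, of which 87 were found and 80 tested. EdgeR called 0 of the 80 in each of the 3 comparisons. At an unadjusted p under 0.05, 2 had positive and 2 negative fold changes in untrained against sham, 4 and 1 in SBES against untrained and 6 and 2 in SBES against sham, beside 4.45%, 5.37% and 9.31% of all genes, and the medians were -0.04, 0.25 and 0.22. Tns2, a tensin that links integrin tails to actin, came closest to the threshold. It stood at 0.878, 0.477 and 0.499 FPKM in sham, 0.702, 1.10 and 1.28 in untrained and 1.78, 1.94 and 2.53 in SBES libraries, with SBES above the other 6 (without TMM factors SBES 1, at 1.35, lay below untrained 3, at 1.42). The log2 fold change in SBES against sham was 1.78 (SE 0.34; edgeR adjusted p = 0.0564), and it passed with the replicate block (adjusted p = 0.0439) and with DESeq2 (adjusted p = 0.000181), within a range of 0.000181 to 0.318 over the alternatives.

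Fermt3, the kindlin of blood cells, gave 1.21 (SE 0.38; edgeR adjusted p = 0.267) in SBES against sham, at 1.11, 0.811 and 0.640 FPKM in sham and 0.904, 2.17 and 2.78 in SBES libraries. The groups overlapped through SBES 1, and without the replicate 1 libraries the value was 1.78 (adjusted p = 0.00441, within 0.00441 to 0.784 over the alternatives). Tinagl1, a basement membrane protein, gave 2.11 (SE 0.67; edgeR adjusted p = 0.272) and rested on SBES 3 at 13.1 FPKM, beside 1.51 and 2.99 in the other SBES libraries and 0.599 to 1.73 in sham, and without SBES replicate 3 it was 0.73. Its adjusted p ran from 5e-08, with no filter on low counts, to 0.680. In SBES against untrained the 3 partners of smallest p were P4ha1, a subunit of the prolyl hydroxylase that stabilises collagen (-0.79, SE 0.25; unadjusted p = 0.00750), Tns2 (1.02, SE 0.33) and Vcl, the actin linker vinculin (1.15, SE 0.48). In untrained against sham they were Mmp9, a gelatin-cleaving protease (-0.63, SE 0.25; unadjusted p = 0.0260), Serpinh1, the collagen chaperone (-1.21, SE 0.49), and Kank2, an adaptor at integrin adhesions (1.07, SE 0.45).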

How the data were processed

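Full-length cDNA was sequenced in 9 libraries of mouse spinal motoneurons, 3 each from sham, untrained and SBES mice. The authors deposited 1 table with gene counts, FPKM values and exonic length. Reads were aligned with Hisat2 2.0.1 and counted with HTSeq 0.6.1, per the labels' protocols, on mm10, per the submitters' processing notes. Neither the annotation release nor the strand setting is given in the sources used here. FPKM recomputed from the counts, the deposited lengths and the column totals matched all deposited FPKM values within 0.006. Of the gene IDs, 55141 (99.5%) are in GENCODE M21. The labels do not name 4 columns (3 untrained, SBES 1) in the same words, and these were assigned by elimination. The totals of 11821145 to 17675948 counts set the precision, and read numbers are given for some of the low genes, not for all. Lamb1 in SBES 3 and Lama5 in sham 2, for example, rest on 1 count each. Replicates differed beyond counting noise (chi-square per degree of freedom 25.8 to 225).

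Counts were fitted in R 4.3.3 with edgeR 4.0.16 (TMM scaling, filterByExpr with a minimum count of 10, which kept 15893 genes, and the quasi-likelihood test), in one fit over 9 libraries with a coefficient per group, and p-values were adjusted over all genes by Benjamini-Hochberg. Levels are FPKM from counts, deposited lengths and TMM-adjusted totals. The scripts were tested on simulated data. Alternatives were DESeq2 1.42.0, the scaling of edgeR (RLE or total counts), no filter on low counts, the replicate number as a block, only the 2 groups compared, each library left out, and the 3 replicate 1 libraries left out. Overlap between groups was also read with no TMM factor, an alternative chosen after seeing the data. Deviations of same-numbered SBES and sham libraries from their group means correlated at 0.330, 0.192 and 0.186, so that the numbers were taken to pair these libraries. Differently numbered libraries ran from -0.300 to 0.211, and SBES 3 with sham 2, at 0.211, was above 2 of the same-numbered values. In SBES the number also stands for the frequency. The pairing comes from the data, not from the design, and it did not hold for the other comparisons (lowest 0.0159 and -0.171).

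Named members are the 12 of highest mean, the 4 of smallest p in each direction of a comparison, those without overlap between groups whose log2 fold change is 1 or more in size, and the laminin, type IV collagen, nidogen, fibronectin and integrin beta genes by level. Of the partner genes the 3 of smallest p per comparison are named. Others named beside a count were chosen after their values were seen. The values of 1 member and of 1 marker list are not reported here. The members and lists were chosen with earlier results of these data known.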

Additional observations from a re-analysis of the deposited data

How the results depend on the processing

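For 34 fold changes of named genes, 440 values were recomputed under the alternatives, of which 415 kept their direction and their side of the threshold, 19 passed a threshold that the reported value missed, 5 no longer passed (all of Itga5 with a library left out), and 1 reversed, Col6a1 in SBES against untrained at 0.70 without untrained replicate 1, within -1.93 to 0.70 with a library left out.

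In SBES against sham the number of members called was 3 with DESeq2, 2 with total counts, 3 with no filter on low counts (Itga5, Fn1 and Col4a1), 3 without replicate 1 (Itga5, Fn1 and Lamb2) and 0 to 1 with a library left out. With the replicate block it was 2, Itga5 and Fn1 (adjusted p = 0.0475), and over all genes the block gave 4, 0 and 132 calls for untrained against sham, SBES against untrained and SBES against sham, where the fit without it gave 0, 0 and 55. In untrained against sham 1 member was called with no filter on low counts (Itga5, adjusted p = 0.0400). Over all genes no filter gave 134, 186 and 517 calls, leaving out replicate 1 in each group gave 47, 13 and 581, and leaving out 1 library gave 0 to 86 in SBES against sham. In that comparison DESeq2 gave 300 calls over all genes and total counts 80.

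The number of members with an unadjusted p under 0.05 was 2 to 6 in untrained against sham with a library left out, beside 382 to 913 genes in all. In SBES against untrained it was 10 of 84 with no filter, beside 1424 of 31752 genes, and 6 of 49 without replicate 1, beside 1546 of 16210. With a library left out it was 2 to 6 there, beside 737 to 996 genes. In SBES against sham it was 13 of 84 with no filter, beside 2245 of 31752 genes. With a library left out it was 4 to 9 there, beside 975 to 1903 genes. The fits with a library left out tested 52 to 57 members and 16298 to 16478 genes. The median of the members ranged from -0.12 to 0.25, from -0.051 to 0.28 and from -0.14 to 0.36 in the 3 comparisons with a library left out. It was -0.031 in SBES against untrained with total counts and -0.10 in SBES against sham with no filter. Total counts moved the median of all genes to 0.18, -0.19 and -0.02. The cause was not tested. With no TMM factor 6, 7 and 7 members were without overlap, where 5, 8 and 6 were with it, and 3, 5 and 4 were the same members in the same direction. The share of all genes without overlap is given for the TMM scale only, so the counts with no TMM factor are not read as a result about the members. The 12 members of highest level were the same 12 when ordered by log2(FPKM + 1).

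Most members had few reads. The 36 untested genes, with 2 to 77 counts in all 9 libraries, allow no statement on a difference at this depth, and the median SE of the 48 tested genes was 0.52 on the log2 scale in SBES against sham. Sham levels of Itga5 rest on 11 counts.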

Other observations

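Among cell type markers not set beside the members above, edgeR called 0 genes in any comparison. The 8 astrocyte markers summed to 480 to 873 FPKM in sham, 341 to 952 in untrained and 488 to 1125 in SBES libraries, and all 8 had positive fold changes in SBES against untrained. The 8 microglial markers summed to 343 to 891, 696 to 776 and 504 to 1319 FPKM, with 8, 3 and 5 of 8 above 0 in the same 3 comparisons. The markers of ependyma (6 genes) summed to 25.3 to 49.4, 19.7 to 34.5 and 26.9 to 48.6 FPKM, and those of oligodendrocyte precursors (6 genes) to 102 to 199, 43.6 to 167 and 114 to 202 FPKM. The 6 pan-neuronal markers summed to 1336 to 1785 FPKM in sham, 946 to 992 in untrained and 844 to 1582 in SBES libraries, so that every sham sum lay above every untrained sum. The single genes were not uniform, with 2 above and 4 below 0 in untrained against sham (median -0.19).

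Among the partner genes, the 24 adaptors and kinases that link integrins to actin had median log2 fold changes of -0.06, 0.43 and 0.49 in untrained against sham, SBES against untrained and SBES against sham, with 10, 18 and 16 above 0. The 10 tested partners of basement membranes had medians of 0.05, 0.33 and 0.46, with 5, 8 and 9 above 0. For the 19 genes of collagen folding and cross-linking they were 0.02, 0.12 and 0.07. For the 16 genes of procollagen processing and matrix turnover they were -0.10, 0.31 and 0.22, and for the 11 other matrix receptors -0.09, 0.31 and 0.09. Over all genes tested the medians were -0.01, 0.02 and -0.00.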
